A study of Homo sapiens with 4 samples.

Results

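The BCL2 family holds the proteins that decide whether the outer membrane of the mitochondrion is breached during apoptosis, and 10 of its genes were followed in MV4-11, a human AML cell line that carries a KMT2A fusion and an internal tandem duplication of FLT3. They were picked by gene symbol from the 18885 genes with a value, and they were BCL2, BCL2L1, MCL1 and BCL2A1 (the guardians, which block death), BAX and BAK1 (the effectors, which form the pores), and BID, BBC3, PMAIP1 and BCL2L11 (BH3-only proteins, which trigger it). All 10 were measured and all 10 passed the filter on low values. The NC group held 2 libraries of control cells, and the sh-ANP32B group held 2 libraries of cells given a lentiviral short hairpin RNA against ANP32B, a histone chaperone, and selected with puromycin. Cells of both groups were MV4-11, and no drug treatment other than puromycin is described for them. The labels name no hairpin for NC, whereas the study describes an sh-NC control. If NC cells carried none, transduction and selection cannot be told apart from the loss of ANP32B. The knockdown columns carry the mark S3, which matches the number of 1 of the study's hairpins, but no text ties that hairpin to the sequencing. The study makes a general statement that its experiments were repeated independently, and nothing says of these libraries that the 2 of a group came from separate cultures, so the p-values measure only the spread between these samples, which may be technical.

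The values are TPM, a measure of transcript abundance in which read density per length of transcript is scaled to a common total, so levels can be compared between genes. The 4 libraries summed to between 997271 and 998546 TPM, and the depth in reads is unknown. The share of TPM in the 10 most abundant genes was 13.3% and 12.8% in NC and 14.8% in both sh-ANP32B libraries, and mitochondrial genes held 15.9% and 15.4% in NC and 17.6% and 17.4% in sh-ANP32B. The test was limma's moderated test of log2(TPM + 1). It covered 16937 genes, those that reached 1 TPM in 2 or more libraries. Each log2 fold change is given as sh-ANP32B relative to NC on that scale, which understates the change of low genes. A gene was called when its p, adjusted over all genes tested by the Benjamini-Hochberg method, was below 0.05 and its log2 fold change was beyond 0.5. ANP32B itself stood at 358 and 364 TPM in NC and at 54.1 and 49.3 TPM in sh-ANP32B. Of the myeloid markers, CEBPA, SPI1, CD33, FLT3 and KIT all had values in every library, and MPO was not analysed here. Of 4 T cell markers, CD2 alone had values, at 0.521 and 0.442 TPM in NC and 3.62 and 3.63 TPM in sh-ANP32B, and the 4 erythroid markers were not analysed here.

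Proteins of this family share short stretches called BCL2 homology (BH) domains. Guardians fold around a groove, and the BH3 helix of a BH3-only protein or of an effector inserts into it, so that cell fate depends on which partners are present and in what amounts. Free BAX and BAK1 assemble in the outer mitochondrial membrane and release cytochrome c, which starts the caspase cascade. AML cells often lean on BCL2 or MCL1 for survival, and the drug venetoclax occupies the groove of BCL2.

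The BH3 helix is the shared part that defines the family, so its coding sequence is shown for each member in which it could be read. The canonical coding sequences of GENCODE were translated and searched for a leucine, then any 3 residues, then glycine or alanine, then aspartate. This pattern occurred once in 9 of the 10 members and was not found in BCL2A1, which has 175 residues. Each line gives 39 bases of the coding strand of hg38, 5′ to 3′, with the codons of the leucine, of the glycine or alanine and of the aspartate in capitals.
BCL2, exon 2, chr18:63318352-63318390, minus strand: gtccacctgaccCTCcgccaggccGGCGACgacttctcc
BCL2L1, exon 2, chr20:31721925-31721963, minus strand: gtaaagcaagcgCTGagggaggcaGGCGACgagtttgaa
MCL1, exon 1, chr1:150578868-150578906, minus strand: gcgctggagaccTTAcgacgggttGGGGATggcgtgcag
BAX, exon 3, chr19:48955775-48955813, plus strand: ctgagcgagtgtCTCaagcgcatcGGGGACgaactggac
BAK1, exon 4, chr6:33575390-33575428, minus strand: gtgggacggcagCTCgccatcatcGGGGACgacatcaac
BID, exon 4, chr22:17739418-17739456, minus strand: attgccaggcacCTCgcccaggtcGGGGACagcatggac
BBC3, exon 3, chr19:47226582-47226620, minus strand: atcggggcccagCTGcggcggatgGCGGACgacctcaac
PMAIP1, exon 2, chr18:59902661-59902699, plus strand: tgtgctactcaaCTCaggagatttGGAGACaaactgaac
BCL2L11, exon 3, chr2:111150091-111150129, plus strand: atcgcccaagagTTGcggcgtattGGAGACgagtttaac

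BBC3 was the only one of the 9 with alanine (GCG) in place of glycine, and MCL1 the only one with GAT for the aspartate. The proteins ran from 54 residues for PMAIP1, whose leucine of the pattern is residue 29, to 350 residues for MCL1, whose leucine is residue 213.

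Among the 10 members, 2 were called lower in sh-ANP32B (BCL2 and PMAIP1) and 2 were called higher (BCL2A1 and BAK1). Of all genes tested, 10.1% were called lower and 17.9% higher, so the counts of 2 of 10 in each direction lie close to that background and say nothing particular to the family. With the adjusted p alone, 3 members were lower and 4 higher, against 19.7% lower and 26.0% higher over all genes. The median log2 fold change was 0.03 over the members and 0.08 over all genes tested. Lower genes made up 36.1% of all calls, 50.2% after quantile normalization and 48.9% after median-of-ratios scaling, and quantile normalization moved the median of all genes by -0.12. The same 4 members were called under both of these scalings, and also with the mitochondrial genes left out. In bulk samples, fewer cells of a type and less RNA per cell cannot be told apart, and this touches every value given here.

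**Figure D1:**
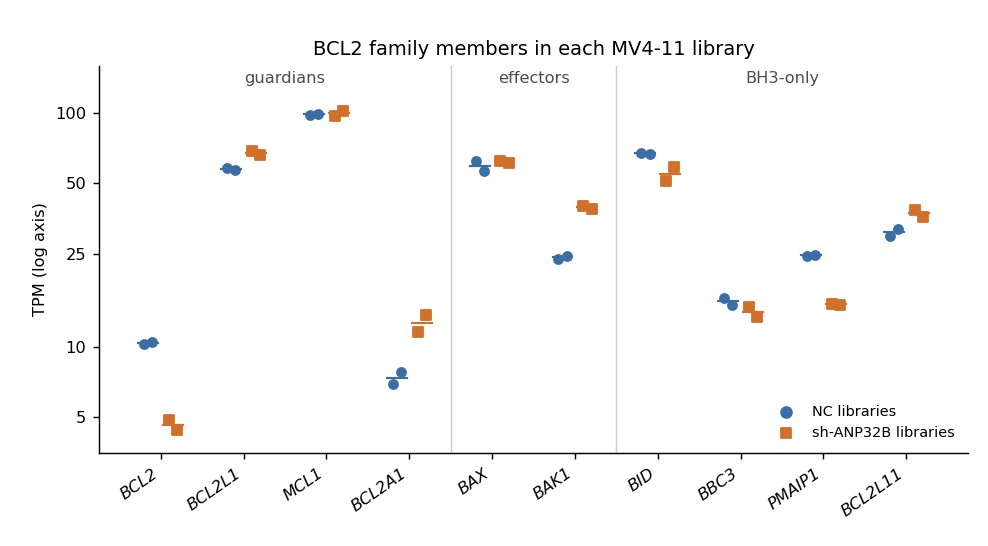
TPM (log axis) of the 10 BCL2 family genes in each library, with 2 NC libraries as blue circles, 2 sh-ANP32B libraries as orange squares and the mean of each group as a short line. The groups overlap for MCL1 and BAX, and BCL2 moved from about 10.4 TPM to 4.64 TPM. How many of all genes have groups that lie apart was not counted. Lying apart is not a call, as for BBC3 with a limma adjusted p of 0.284.

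In NC the order of mean level was MCL1, BID, BAX, BCL2L1, BCL2L11, PMAIP1, BAK1, BBC3, BCL2 and BCL2A1, from 99.1 down to 7.38 TPM. The BAX and BCL2L1 libraries overlapped, and the lowest PMAIP1 and highest BAK1 libraries both stood at 24.5 TPM. In sh-ANP32B the order was MCL1, BCL2L1, BAX, BID, BAK1, BCL2L11, PMAIP1, BBC3, BCL2A1 and BCL2, from 99.7 down to 4.64 TPM. BBC3 and BCL2A1 overlapped there. BCL2 and BCL2A1, the 2 lowest members in both groups, thus exchanged places, and BAK1 passed both PMAIP1 and BCL2L11. These orders are descriptions and were not tested.

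Among the guardians, BCL2 fell and BCL2A1 rose, whereas the far more abundant MCL1 and BCL2L1 stayed within the fold limit. BCL2 (ENSG00000171791, chr18:63123346-63320128, minus strand) is the founding guardian and the target of venetoclax. It stood at 10.3 and 10.4 TPM in the NC libraries and at 4.87 and 4.41 TPM in the sh-ANP32B libraries. Both knockdown libraries lay below both controls, and the knockdown mean was 44.7% of the NC mean (4.64 ± 0.331 against 10.4 ± 0.0935, SD, n = 2 each). The log2 fold change was -1.01 (SE 0.126, 95% interval -1.33 to -0.70, limma adjusted p = 0.00201). Only 1.63% of the genes tested had a lower value. Its level was moderate, at the 44.4th percentile of the 18885 genes listed. No exon of another annotated gene overlaps its exons.

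BCL2A1 (ENSG00000140379, chr15:79960892-79971196, minus strand) encodes a short-lived guardian known from myeloid cells, where NF-κB induces it. It read 6.95 and 7.81 TPM in NC against 11.6 and 13.7 TPM in sh-ANP32B. Both knockdown libraries were above both controls, although they differed from each other by more than the NC libraries did. The means were 7.38 ± 0.609 and 12.6 ± 1.53 (SD, n = 2 each), 171% of the NC level. The log2 fold change of 0.70 (SE 0.133, limma adjusted p = 0.00910) had a 95% interval of 0.37 to 1.03, which reaches below the fold limit of 0.5.

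MCL1 (chr1:150560895-150579738, minus strand), a rapidly turned over guardian that binds PMAIP1 and BCL2L11, was the most abundant member in every library. It was measured at 98.6 and 99.5 TPM in NC and at 97.4 and 102 TPM in sh-ANP32B. The groups overlapped, and the log2 fold change of 0.01 (95% interval -0.11 to 0.13, limma adjusted p = 0.893) turned to -0.087 after median-of-ratios scaling and to -0.024 without sh-ANP32B replicate 2. The 95% interval lay within the fold limit, but it rests only on the spread between these libraries, which may be technical. Exons of MCL1 share 43 bases with ADAMTSL4 on the opposite strand and 328 bases with ADAMTSL4-AS1 on the same strand, and reads from such stretches could be counted for either gene. BCL2L1 (chr20:31664452-31723989, minus strand), whose main product is BCL-XL, had 58.4 and 57.1 TPM in NC and 68.8 and 66.1 TPM in sh-ANP32B. Its libraries did not overlap, and its log2 fold change of 0.22 (SE 0.0519, limma adjusted p = 0.0192) passed the adjusted p but not the fold limit. That p rose to as much as 0.0836 when 1 library was left out, and it was 0.123 after median-of-ratios scaling. The gene also gives a short isoform that favours death, as does MCL1, and gene-level TPM cannot separate the isoforms. Of the 4197 exonic bases of BCL2L1, 1735 are shared with ABALON on the opposite strand, so the same limit on reads holds there.

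The summed level of the 4 guardians among the members was 174.3 and 174.9 TPM in NC and 182.7 and 186.2 TPM in sh-ANP32B. The log2 ratio of 0.08 became -0.018 after median-of-ratios scaling. MCL1 held more than any other guardian in every library, with 56.6% and 56.9% of the sum in NC and 53.3% and 54.8% in sh-ANP32B. BCL2 went from 5.91% and 5.97% to 2.67% and 2.37%. BCL2A1 went from 3.99% and 4.46% to 6.32% and 7.36%. The ratio of BCL2A1 to BCL2 was therefore 0.674 and 0.748 in NC and 2.37 and 3.11 in sh-ANP32B, and the ratio of MCL1 to BCL2 went from 9.57 and 9.54 to 20.0 and 23.2. For each of these sums and ratios an exact two-sided permutation test over the 4 libraries gave p = 0.333, the smallest that 2 against 2 allows.

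**Figure D2:**
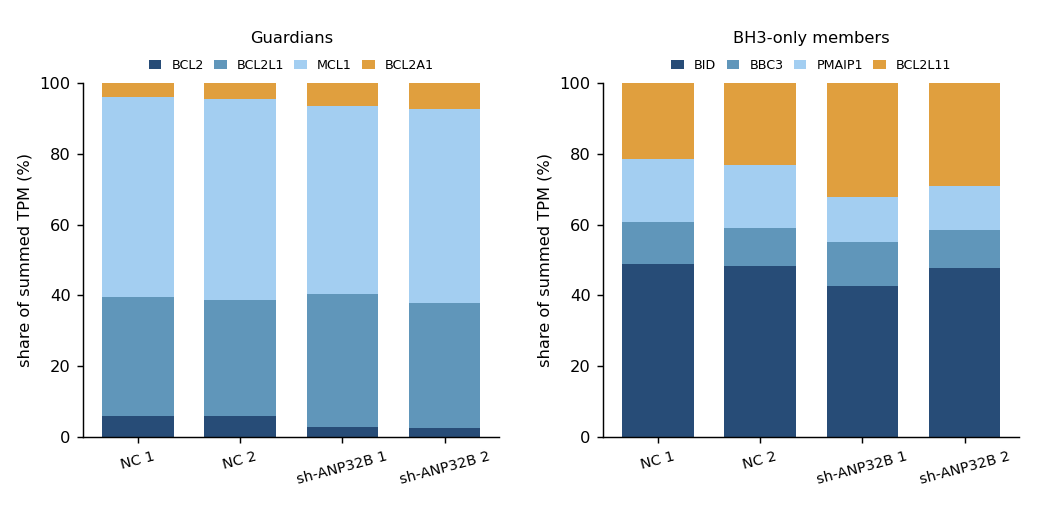
Share of summed TPM (%, linear axis from 0 to 100) held by each of 4 guardians (left) and each of 4 BH3-only members (right) in every library, 1 stacked bar per library. BCL2 narrowed from 5.91% and 5.97% of the guardians to 2.67% and 2.37%, and PMAIP1 from 17.8% and 17.9% of the BH3-only sum to 12.7% and 12.2%.

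The effectors parted. BAK1 (ENSG00000030110, chr6:33572547-33580293, minus strand), the pore former that sits in the mitochondrial membrane of healthy cells, was measured at 23.7 and 24.5 TPM in NC and at 40.2 and 38.9 TPM in sh-ANP32B. The libraries of each group lay close together and far from the other group. The means were 24.1 ± 0.513 and 39.5 ± 0.897 (SD, n = 2 each), 164% of the NC level, with a log2 fold change of 0.69 (SE 0.0644, 95% interval 0.53 to 0.85, limma adjusted p = 0.000759). This was the lowest adjusted p among the members. Exons of BAK1 share 91 bases with GGNBP1 on the opposite strand, and 2 BAK1 pseudogenes are annotated, so some of its reads may have been placed elsewhere.

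BAX (chr19:48954815-48961798, plus strand), the effector that moves from the cytosol to mitochondria, showed no such difference. It had 62.4 and 56.3 TPM in NC and 62.6 and 61.1 TPM in sh-ANP32B, and the groups overlapped. Its log2 fold change was 0.06 (95% interval -0.10 to 0.23, limma adjusted p = 0.496), and it was -0.036 after median-of-ratios scaling and -0.013 without NC replicate 2. The ratio of BAK1 to BAX went from 0.380 and 0.435 in NC to 0.641 and 0.637 in sh-ANP32B. BCL2 relative to BAX, a ratio often quoted for the balance of death and survival, went from 0.165 and 0.185 to 0.0778 and 0.0721. BCL2 relative to BAK1 went further, from 0.434 and 0.427 to 0.121 and 0.113. The sum of both effectors was 86.2 and 80.8 TPM in NC and 102.8 and 99.98 TPM in sh-ANP32B, with p = 0.333 again the smallest that the exact permutation test can give.

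The BH3-only members did not move as a block. PMAIP1 (ENSG00000141682, chr18:59899996-59904305, plus strand), also named NOXA, binds MCL1 and BCL2A1 and is a target of p53 and ATF4. It read 24.5 and 24.8 TPM in NC and 15.2 and 15.1 TPM in sh-ANP32B. The replicates were nearly equal within each group (24.6 ± 0.234 and 15.2 ± 0.0909, SD, n = 2 each), and the knockdown mean was 61.6% of the NC mean. The log2 fold change was -0.66 (SE 0.0761, 95% interval -0.85 to -0.47, limma adjusted p = 0.00151), and the interval reaches just inside the fold limit. No annotated exon of another gene overlaps it. PMAIP1 relative to MCL1, its main partner, went from 0.248 and 0.249 to 0.156 and 0.148.

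BCL2L11 (chr2:111119378-111168444, plus strand), or BIM, binds every guardian and can activate BAX and BAK1 directly. It had 29.6 and 32.1 TPM in NC and 38.5 and 36.0 TPM in sh-ANP32B, a log2 fold change of 0.26 (SE 0.0733, limma adjusted p = 0.0319). The groups did not overlap, but the value stayed under the fold limit, and the adjusted p was 0.0602 with the replicate number as a block and up to 0.132 with 1 library left out. Exons of BCL2L11 share 727 bases with the opposite-strand MIR4435-2HG, which read 52.4 and 50.7 TPM in NC and 47.4 and 46.9 TPM in sh-ANP32B. Whether the counting used strand is not given in the sources used here, so reads of this stretch cannot be told apart.

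BID (chr22:17734138-17774770, minus strand), which activates the effectors once a caspase has cleaved it, stood at 67.4 and 67.1 TPM in NC and at 51.1 and 59.0 TPM in sh-ANP32B. Its log2 fold change of -0.29 (SE 0.0779, limma adjusted p = 0.0299) was under the fold limit, and sh-ANP32B replicate 1 lay further from NC than replicate 2. Without replicate 1 the log2 fold change was -0.19, with a limma adjusted p of 0.0816. BBC3 (chr19:47220822-47232766, minus strand), or PUMA, a p53 target that binds all guardians, had 16.2 and 15.1 TPM in NC and 14.8 and 13.4 TPM in sh-ANP32B. The libraries did not overlap, yet the log2 fold change of -0.14 (95% interval -0.39 to 0.10, limma adjusted p = 0.284) did not pass the test.

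Summed, the BH3-only members BID, PMAIP1, BBC3 and BCL2L11 stood at 137.7 and 139.0 TPM in NC and at 119.6 and 123.5 TPM in sh-ANP32B. The means of BID, PMAIP1 and BBC3 were lower and that of BCL2L11 was higher. The share of BCL2L11 in this sum went from 21.5% and 23.1% to 32.2% and 29.2%, whereas that of BBC3 overlapped between groups, with 11.8% and 10.8% in NC and 12.4% and 10.8% in sh-ANP32B. BH3-only members relative to guardians went from 0.790 and 0.795 to 0.655 and 0.663, and guardians relative to effectors from 2.02 and 2.17 to 1.78 and 1.86. With the exact permutation test, p was 0.333 for both ratios and could not be smaller. The sum and these ratios leave out the BH3-only genes BMF and BAD and the guardian BCL2L2. BMF had 12.0 and 12.0 TPM in NC and 23.4 and 22.1 TPM in sh-ANP32B. BAD had 32.3 and 27.1 TPM, then 33.7 and 35.6 TPM, and BCL2L2 22.6 and 23.4 TPM, then 28.9 and 26.6 TPM. A sum with these genes was not tested, so a fall of all BH3-only transcripts is not shown.

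**Figure D3:**
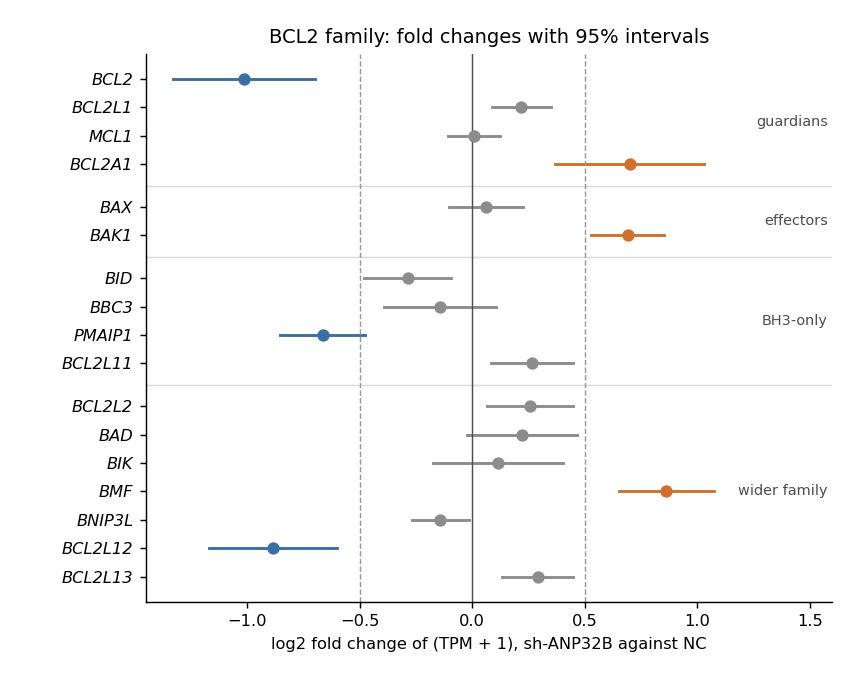
log2 fold change of (TPM + 1), sh-ANP32B against NC, with limma 95% intervals, for the 10 members and 7 further family genes. Blue marks genes called lower and orange genes called higher, dashed lines stand at the fold limit of 0.5 in each direction, and the called values ran from -1.01 for BCL2 to 0.86 for BMF.

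Of 13 further family genes, 8 had values, 7 were tested, and 1 was called in each direction, beside 10.1% lower and 17.9% higher over all genes. BMF, a BH3-only protein held at the cytoskeleton, had 12.0 TPM in both NC libraries and 23.4 and 22.1 TPM in sh-ANP32B. Its log2 fold change of 0.86 (SE 0.0847, limma adjusted p = 0.000898) was above that of every one of the 10 members. Exons of BMF share 461 bases with the opposite-strand BMF-AS1. BCL2L12 had 69.0 and 55.6 TPM in NC and 31.6 and 34.6 TPM in sh-ANP32B, a log2 fold change of -0.89 (SE 0.113, limma adjusted p = 0.00221). Its exons share 734 bases with IRF3 on the opposite strand, and IRF3 itself read 76.1 and 85.2 TPM in NC and 88.2 and 81.2 TPM in sh-ANP32B, overlapping groups.

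The remaining family genes stayed under the fold limit. BCL2L13 (39.7 and 42.0 TPM in NC, 51.5 and 48.9 TPM in sh-ANP32B) and the guardian BCL2L2 (22.6 and 23.4 TPM, then 28.9 and 26.6 TPM) passed the adjusted p alone. With 1 library left out the limma adjusted p was 0.0294 to 0.0657 for BCL2L13 and 0.0550 to 0.167 for BCL2L2, and BCL2L2 shares 815 exonic bases with the same-strand gene BCL2L2-PABPN1. BAD, a BH3-only protein held back by phosphorylation, had 32.3 and 27.1 TPM in NC and 33.7 and 35.6 TPM in sh-ANP32B, and its exons share 404 bases with the opposite-strand GPR137. BIK and the mitophagy receptor BNIP3L did not pass the test. BNIP3 was at 0.97 TPM or less in every library and was not tested, and BCL2L10, BOK, HRK, BCL2L14 and BCL2L15 were not analysed here.

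Of the 60 tested genes in 7 lists that surround the family in the pathway, 7 were called lower and 11 higher, and the median of their log2 fold changes was 0.03. These counts are close to the background of 10.1% lower and 17.9% higher over all genes. They were 7 lower and 7 higher after quantile normalization, 10 lower and 6 higher after median-of-ratios scaling, and 8 lower and 7 higher without sh-ANP32B replicate 2, so the balance of directions turned with the scaling. The death receptor arm, which reaches the family through caspase cleavage of BID, had 4 of 10 called higher and 0 lower by limma, with a median of 0.42, beside 17.9% higher and 10.1% lower over all genes. At an adjusted p below 0.05 of any fold the counts were 7 and 0, beside 26.0% and 19.7%. No gene of this list was lower at an unadjusted p below 0.05 either. The ligand TNFSF10, or TRAIL, had 3.26 and 3.46 TPM in NC and 7.77 and 10.8 TPM in sh-ANP32B, a log2 fold change of 1.22 (SE 0.186, limma adjusted p = 0.00410). CFLAR, which encodes the caspase-8 inhibitor c-FLIP, went from 26.5 and 28.1 to 61.0 and 53.8 TPM. CASP8 itself went from 22.3 and 21.6 to 31.7 and 33.3 TPM, at a log2 fold change of 0.55. The adaptor TRADD went from 18.5 and 20.0 to 27.5 and 27.8 TPM, at a log2 fold change of 0.50 that is just past the fold limit. Median-of-ratios scaling moved the median of all genes by -0.084 and took the log2 fold change of BCL2L11 from 0.26 to 0.17. A like shift would put CASP8 and TRADD under the fold limit. The calls of this list alone were not counted under the other scalings. Without rescaling, the list thus held a ligand, an initiator caspase, an adaptor and an inhibitor among its called genes.

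Downstream of the mitochondrion, 1 of 11 genes was called lower and 2 higher. Over all genes 10.1% were called lower and 17.9% higher, which is the background for every list of this paragraph. APAF1, the scaffold of the apoptosome, had 31.3 and 32.3 TPM in NC and 47.9 and 47.6 TPM in sh-ANP32B, a log2 fold change of 0.57. CASP9, the caspase it activates, had 12.6 and 9.82 TPM and then 16.1 and 16.8 TPM, and its limma adjusted p of 0.0253 rose to as much as 0.0837 when a library was left out. The log2 fold change of CASP9 was 0.52. Median-of-ratios scaling took that of BCL2L11 from 0.26 to 0.17, and a like shift would put APAF1 and CASP9 under the fold limit. Calls under that scaling were not listed by gene for the pathway. CASP2 went the other way, from 70.5 and 69.9 to 48.4 and 47.2 TPM. Of 6 tested inhibitors of apoptosis, BIRC5 (survivin, also a mitotic protein) fell from 48.4 and 51.3 to 29.6 and 26.5 TPM, whereas BIRC2 rose from 12.7 and 16.6 to 25.2 and 24.1 TPM and BIRC7 from 11.8 and 10.2 to 17.3 and 17.1 TPM. Among 9 mitochondrial partners of the family, the channel gene VDAC1 was the 1 called, at 271 and 269 TPM in NC and 186 and 189 TPM in sh-ANP32B. Its log2 fold change of -0.52 was just past the fold limit. With the mitochondrial genes left out, 6 pathway genes were called lower in place of 7, and these were not listed by gene.

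Among regulators of the members, directions were mixed. Of 10 p53 targets outside the family, 2 were called lower and 2 higher, with a median of 0.04, beside 10.1% lower and 17.9% higher over all genes. CDKN1A, the p21 inhibitor of the cell cycle, rose from 8.56 and 7.15 to 16.5 and 20.2 TPM and ZMAT3 from 1.37 and 1.38 to 3.29 and 2.95 TPM, although the call of ZMAT3 was lost whichever library was left out (limma adjusted p 0.0516 to 0.0801). AEN fell from 18.0 and 16.9 to 8.92 and 7.75 TPM, and the DNA repair gene DDB2 from 65.1 and 68.1 to 42.5 and 44.3 TPM. Of 10 transcription factor genes known to act on the members, ATF4 fell from 384 and 409 to 230 and 216 TPM (log2 fold change -0.83, SE 0.0517, limma adjusted p = 0.000246), TP73 fell from 12.7 and 11.5 to 6.48 and 7.74 TPM, and STAT5A rose from 33.4 and 35.9 to 47.3 and 51.8 TPM. The log2 fold change of STAT5A, 0.50, was just past the fold limit. None of the 4 ubiquitin enzyme genes that govern the lifetime of MCL1 protein (HUWE1, USP9X, FBXW7 and BTRC) was called by limma, and 0 of the 4 had even an unadjusted p below 0.05.

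**Figure D4:**
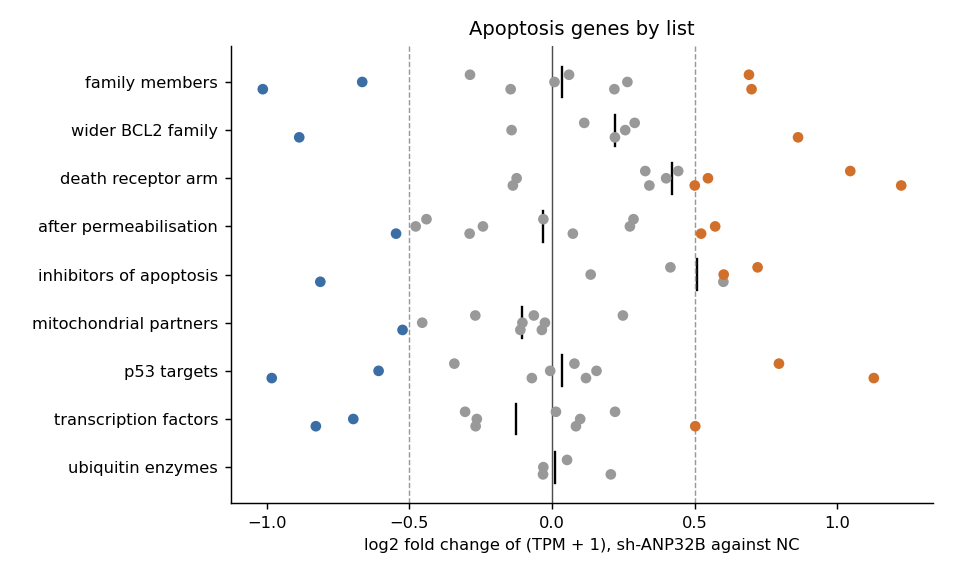
log2 fold change of (TPM + 1), sh-ANP32B against NC, for each tested gene of the family and of the lists around it, 1 row per list and 1 point per gene, with the list median as a black bar. Blue and orange mark genes called lower and higher, and the medians ran from -0.12 for transcription factors to 0.51 for inhibitors of apoptosis.

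Markers of monocytes and macrophages were mostly higher in sh-ANP32B. Of 12 such markers, 10 had values, 9 of these were called higher, beside 17.9% of all genes, and none was at 0. In NC, CD86 read 0.215 and 0.263 TPM, S100A8 0.641 and 0.199 TPM, and S100A9 0.690 and 0.921 TPM. These genes passed the filter of 1 TPM only through the sh-ANP32B libraries. The filter thus favoured their calls as higher, which add no support of their own. The summed level of the 10 markers was 635 and 628 TPM in NC and 6295 and 6253 TPM in sh-ANP32B. Of this, LYZ, the lysozyme gene, made up 471 and 463 TPM and then 5308 and 5260 TPM. CD14 and VCAN were not analysed here. SPI1, which encodes the myeloid factor PU.1, went from 250 and 257 to 361 and 361 TPM. The part of this marker change in the values of BCL2A1, BAK1, BCL2 and PMAIP1 was not tested.

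Promoter letters were looked up for the members with a RefSeq window (GRCh38.p14), which runs from 250 bases before to 50 bases after the start of a transcript. Windows were found for 9 of the 10 members, 14 windows in all, and none for MCL1. The motifs were chosen after the values were seen. On either strand, GAGGAAGT, a core bound by PU.1 and other ETS factors, occurred in 2.59% of all 35116 windows and in 2 of the members' 14 windows, 1 of BAK1 and 1 of BCL2A1. Both stretches are given 5′ to 3′ on the strand of the gene, with the match in capitals, and the BAK1 match reads on the other strand.
BAK1, chr6:33580250-33580279, minus strand: gccacagagcaACTTCCTCtagagggagct
BCL2A1, chr15:79971357-79971386, minus strand: aatcacaggatGAGGAAGTggcttctctga

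The E-box CACGTG, the letters read by MYC and other basic helix-loop-helix factors, occurred in 7.26% of all windows and in 4 of the 14, which belong to 3 members (BAX, BID and BBC3), none of which was called. The BID windows among these overlap and hold the same match, so that site is counted more than once. The CRE TGACGTCA occurred in 1.85% of all windows and in 0 of the 14. The GC box GGGCGG occurred in 45.0% of all windows and in 9 of the 14, which belong to 6 members, and overlapping BID windows again repeat the same matches. A match is a description of letters in this window and does not show that a factor binds there.

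BAX and BCL2 are also the members for which the study designed PCR primers, and these show which part of each transcript such a test reads. The BAX primers lie in exon 4 (cccgagaggtctttttccgag, chr19:48956227-48956247) and exon 5 (ccagcccatgatggttctgat, chr19:48960837-48960857), on either side of an intron. Both BCL2 primers (ggtggggtcatgtgtgtgg, chr18:63318189-63318207, and cggttcaggtactcagtcatcc, chr18:63318119-63318140) lie in coding exon 2, which also holds the BH3 stretch printed above. The TPM used here are summed over the whole gene and do not report on single exons.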

How the data were processed

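RNA of MV4-11 cells was sequenced in 2 NC and 2 sh-ANP32B libraries, grouped by the labels. Per the labels and the study's methods, total RNA was extracted with Trizol, libraries were made with an Illumina TruSeq kit, and reads were aligned to hg38 with HISAT2 (version 2.0.5). The values the authors deposited are TPM per gene. The unit was read from the values, and the tool, annotation and use of strand behind them are not given in the sources used here. No listed gene has a mean under 0.500 TPM. TPM keep no read numbers, so no counting error can be given.

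Identifiers were matched to GENCODE version 44 on hg38 (17290 of 18885 had a symbol). The filter was 1 TPM in 2 libraries and the pseudocount 1. lmFit and eBayes with a trend in limma 3.58.1 (R 4.3.3) were run over all genes passing it, with Benjamini-Hochberg adjustment, and the script was tested on simulated data. Sums and ratios of TPM were compared by an exact two-sided permutation test. Python 3.11.15, numpy 2.4.6, pandas 2.3.3 and matplotlib 3.10.9 were used for tables and plots. The members and lists were chosen with earlier results of these data known. The text names all members, the wider family genes, the genes called in each pathway list (at most 4 with the largest fold change) and ANP32B. The markers, genes with overlapping exons and other genes named with them were added for their bearing on a result. The alternatives were a replicate block, other filters, a pseudocount of 0.1, quantile normalization, median-of-ratios scaling, leaving out mitochondrial genes, each library left out in turn, an unadjusted p and a fold limit of 1. CUT&Tag data and the study's PCR and protein measurements were not analysed here. 1 further marker list is not reported here.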

Additional observations from a re-analysis of the deposited data

How the results depend on the processing

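BCL2, PMAIP1, BCL2A1 and BAK1 were the called members under every alternative run except the fold limit of 1, at which limma called 1 member lower (BCL2) and 0 higher, 0 wider family genes in either direction, and 0 pathway genes lower and 3 higher. With an unadjusted p below 0.05 the counts were 2 and 2 at the limit of 0.5. The 7 lower and 11 higher pathway genes became 7 and 7 after quantile normalization and 10 and 6 after median-of-ratios scaling, where lower outnumbered higher. Without mitochondrial genes they were 6 and 11. With 1 library left out, 7 to 8 were lower and 7 to 9 higher, the latter 7 without sh-ANP32B replicate 2. Signs turned for MCL1 (log2 fold change -0.087 after median-of-ratios scaling, and -0.024 to 0.042 with 1 library left out, the lowest without sh-ANP32B replicate 2), BAX (-0.036 after that scaling, and -0.013 to 0.13 with 1 library left out, the lowest without NC replicate 2) and the guardian sum (-0.018 after that scaling). BCL2L1, BID and BCL2L11 passed the adjusted p in 7, 8 and 6 of 11 alternatives. The cause of these changes was not tested. Replicate numbers did not pair the samples, which share only a number: deviations of same-numbered libraries had a correlation of -0.0232. With that number as a block, limma called 1671 genes lower and 2853 higher, 2 members in each direction, and 7 pathway genes lower and 11 higher, and BCL2L11 had an adjusted p of 0.0602. Depth in reads is unknown, and the exact permutation test of a sum or ratio cannot go below p = 0.333 with 2 libraries a group.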
